A study of Rattus norvegicus with 30 samples.

Results

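C1qa, Cd74, Aif1 and Adgre1, 4 genes that mark macrophages, were described in the adrenal glands of gonadectomized rats with and without sex hormone replacement. Each was taken as the probe set whose annotated symbol is exactly that of the gene, and each has 1 such probe set among the 14557 genes of the table that carry a single symbol. The members have the Entrez numbers 298566 (C1qa), 25599 (Cd74), 29427 (Aif1) and 316137 (Adgre1). RNA of entire adrenals from 30 Wistar rats, 12 weeks old, was measured on arrays of the type Rat Gene 2.1 ST (Affymetrix). Every rat had an array of its own, and the 6 groups held 5 rats each. The groups were sham-operated males (control males), orchiectomized males (ORX), ORX males replaced with testosterone (ORX + T), sham-operated females (control females), ovariectomized females (OVX) and OVX females replaced with estradiol (OVX + E). Depot hormone (testosterone 5 mg, or estradiol 0.5 mg, for each 100 g of body weight) followed surgery by 14 days, and the rats were killed in week 4 after surgery. The hormone therefore acted on the whole animal, and RNA of cortex, medulla, capsule, vessels and resident immune cells was measured together. In such RNA fewer macrophages and less RNA per macrophage cannot be told apart.

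Macrophages live among the steroid-producing cells of the adrenal cortex and along its sinusoids, where they clear dying cells, present antigen and release cytokines. C1qa encodes the A chain of C1q, the recognition unit of the classical complement pathway, which tissue macrophages make together with the B and C chains (C1qb, C1qc). Cd74 encodes the invariant chain, which chaperones MHC class II molecules (RT1-B and RT1-D in the rat) to the compartment where peptides are loaded, and also serves as a receptor of the cytokine MIF. Aif1 encodes the actin-binding protein IBA1 of the macrophage and microglial cytoskeleton. Adgre1 encodes the adhesion receptor known in the mouse as F4/80. Cd74 is not restricted to macrophages, since B cells, dendritic cells and activated endothelial or epithelial cells also express it.

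The DNA just before the gene starts is shown for the invariant chain and the class II genes RT1-Ba and RT1-Da, which it serves. Their mean signals were lowest in the same group of rats, as was that of RT1-Bb, which was not looked up. The same DNA is shown for the 2 further members found in the RefSeq promoter table (GRCr8). Of 8 genes looked up, 7 were found. Aif1 was not among them, and the windows of C1qb and Csf1r were found but are not printed. Each run holds the 250 bases before the annotated start, 5′ to 3′ on the strand of the gene. Capitals mark the letters GAGGAA (or TTCCTC on the other strand), the core bound by the macrophage factor PU.1, and CCAAT (or ATTGG), the core of the Y box of class II promoters.
Cd74, chr18:56526956-56527205, plus strand: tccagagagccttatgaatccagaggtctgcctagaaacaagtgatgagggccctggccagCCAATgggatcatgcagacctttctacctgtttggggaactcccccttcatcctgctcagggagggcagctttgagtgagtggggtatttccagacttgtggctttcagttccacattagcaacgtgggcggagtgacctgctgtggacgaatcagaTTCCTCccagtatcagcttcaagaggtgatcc
RT1-Ba, chr20:4576807-4577056, plus strand: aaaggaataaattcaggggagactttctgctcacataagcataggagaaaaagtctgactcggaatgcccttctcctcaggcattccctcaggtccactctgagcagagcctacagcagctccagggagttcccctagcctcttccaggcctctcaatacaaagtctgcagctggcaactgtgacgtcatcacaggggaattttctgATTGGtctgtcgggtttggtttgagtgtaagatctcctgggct
RT1-Da, chr20:4515165-4515414, plus strand: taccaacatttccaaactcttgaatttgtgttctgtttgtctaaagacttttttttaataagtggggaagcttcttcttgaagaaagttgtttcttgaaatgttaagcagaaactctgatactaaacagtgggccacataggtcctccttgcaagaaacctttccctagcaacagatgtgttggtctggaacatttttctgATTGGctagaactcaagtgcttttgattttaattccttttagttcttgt
C1qa, chr5:154419934-154420183, minus strand: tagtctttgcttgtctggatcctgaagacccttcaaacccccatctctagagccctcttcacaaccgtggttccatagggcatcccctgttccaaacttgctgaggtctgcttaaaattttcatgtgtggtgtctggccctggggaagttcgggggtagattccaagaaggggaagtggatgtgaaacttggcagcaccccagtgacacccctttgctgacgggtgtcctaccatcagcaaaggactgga
Adgre1, chr9:2329190-2329439, plus strand: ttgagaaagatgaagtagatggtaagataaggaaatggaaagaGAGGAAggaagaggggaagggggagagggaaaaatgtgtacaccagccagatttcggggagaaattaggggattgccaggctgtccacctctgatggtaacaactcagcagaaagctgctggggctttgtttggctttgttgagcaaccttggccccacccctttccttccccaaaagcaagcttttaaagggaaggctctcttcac
In windows of 300 bases (250 before and 50 after the start), searched on both strands, 27.6% of 33469 RefSeq promoters held the first motif and 37.5% held the second. Cd74 held both, with CCAAT beginning at base -189, counted from the start, and TTCCTC at -32. RT1-Ba and RT1-Da held ATTGG at close positions, -43 and -49, and the other motif was not found there. Adgre1 held GAGGAA at -207, and neither motif was found in the C1qa window. In the windows not printed, C1qb held GAGGAA at -247 and TTCCTC at -90, and Csf1r held TTCCTC at -229 and -95 and CCAAT at -176. A match is a description of the letters, not evidence of binding.

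The arrays were not alike in spread, which touched the members directly. The SD of all log2 signals of an array ran from 1.43 to 1.75, with a gap that left 10 arrays of narrow spread (1.43 to 1.60) and 20 of wide spread (1.67 to 1.75). Each group held 1 or 2 narrow arrays: 1 in each control group and 2 in each of the others. All 10 narrow arrays lay below their own group's mean for C1qa and for Adgre1, against 6 of 10 for Cd74 and 7 of 10 for Aif1. The deviation from the group mean was lower in narrow than in wide arrays by 0.74 on the log2 scale for C1qa, while the same difference (narrow minus wide) was -0.25 for Adgre1, -0.15 for Cd74 and -0.12 for Aif1. Csf1r, the receptor of the macrophage growth factor CSF1, differed in the same way (-0.77). Of the markers of adrenal cells, all 5 zona fasciculata, 4 zona glomerulosa and 6 chromaffin genes measured lay above the array medians in every group. Of the 33 further macrophage genes measured, 6 lay under them in each group. The part of the array spread in the comparisons was measured by leaving the narrow arrays out and by fitting the array SD as a covariate.

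**Figure D1:**
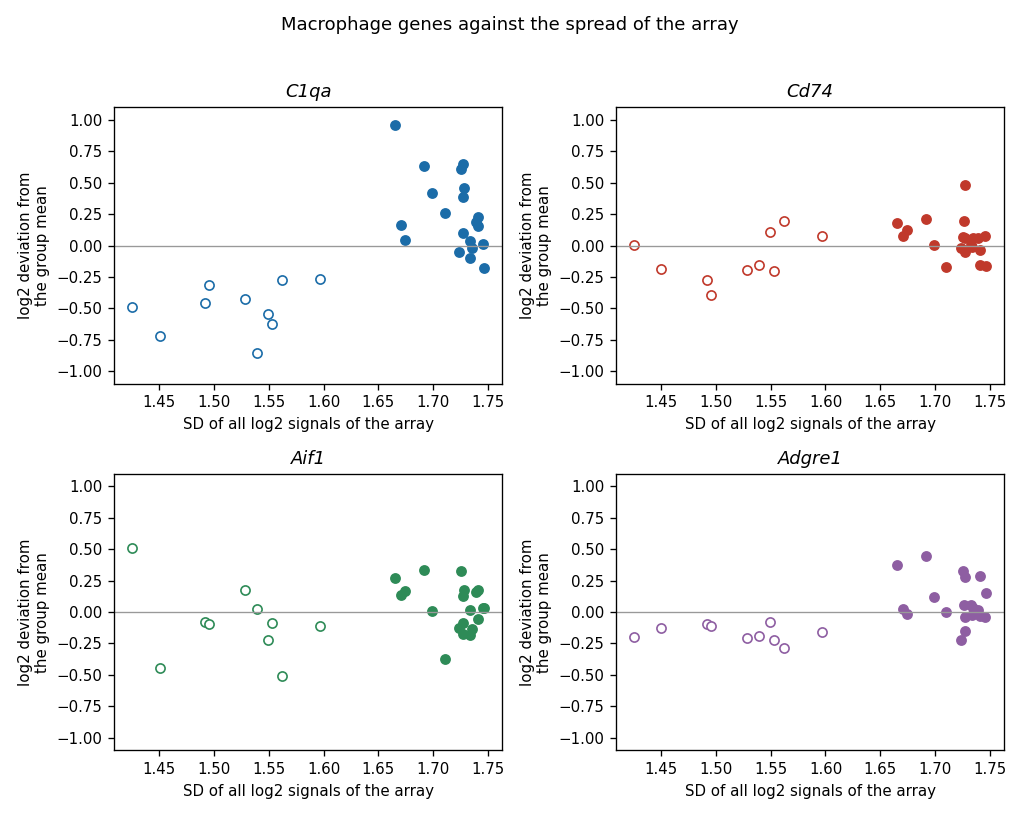
Log2 deviation of each member from its group mean (y) against the SD of all log2 signals of the array (x), for 30 arrays. Open circles are the 10 narrow arrays and filled circles the 20 wide ones. The narrow arrays lie below 0 in all 10 cases for C1qa and Adgre1, while those of Cd74 and Aif1 lie on both sides.

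Of the 4 genes, Cd74 was the one whose level changed with hormone status by limma, and it changed in the ovariectomized females given estradiol. The log2 signals of Cd74 in OVX adrenals were 10.62, 10.75, 10.59, 10.98 and 10.99. In OVX + E adrenals they were 10.52, 10.05, 10.11, 9.87 and 9.65. Every OVX + E rat lay below every OVX rat, although the highest OVX + E value (10.52) came within 0.1 of the lowest OVX value (10.59). The mean fell from 10.79 ± 0.19 to 10.04 ± 0.32 (SD, n = 5 each), a log2 difference of -0.75 (SE 0.12, 95% interval -1.0 to -0.49), or 1.68-fold lower, with a limma adjusted p of 0.000385. The exact two-sided permutation test gave p = 0.00794, the smallest that 5 against 5 values allow. In this comparison 1.69% of all 14557 genes passed in either direction, 1.37% passed with a lower level in OVX + E, and 1.55% had groups that did not overlap with OVX + E lower. The call kept its direction and passed in each of the 21 other fits and left-out arrays, with log2 differences from -0.87 to -0.62, but the fall did not reach the fold of 2 that the study also asked of a changed gene.

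Against sham-operated females, the OVX + E rats had less Cd74 signal by a margin that did not pass. Control females measured 10.68, 10.62, 10.64, 10.56 and 10.29, a mean of 10.56 ± 0.16 (SD, n = 5). The highest OVX + E rat (10.52) lay inside this range and the other OVX + E rats below it. The log2 difference was -0.52 (SE 0.12, limma adjusted p = 0.085, exact permutation p = 0.0159). The result was decided by single arrays: without OVX + E replicate 1, the highest of its group, the adjusted p was 0.00841, and without control female replicate 5, the lowest, it was 0.0393. It also passed with array weights (0.0106), after quantile normalization (0.0333) and when the array SD was a covariate (0.0156). OVX alone lay above control females by 0.23 (SE 0.12, adjusted p = 1, exact permutation p = 0.0794).

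In the male arm ORX had the highest Cd74 mean, as OVX had in the females, with smaller differences that did not pass. Control males measured 10.76, 10.58, 10.43, 10.56 and 10.59. ORX males measured 10.73, 10.85, 10.59, 10.85 and 10.89. ORX + T males measured 10.36, 10.31, 10.72, 10.57 and 10.59. Values of the 3 groups overlapped, with 4 of 5 ORX rats above every ORX + T rat. The log2 difference was 0.20 for ORX against control males (SE 0.12, adjusted p = 0.996, exact permutation p = 0.0476) and -0.27 for ORX + T against ORX (SE 0.12, adjusted p = 0.561, exact permutation p = 0.0159). These comparisons share the ORX arrays. ORX + T minus control males was -0.07 (SE 0.12, exact permutation p = 0.46) and 0.02 after quantile normalization. Which of these groups lay lowest was thus not firm. The response to estradiol in females minus the response to testosterone in males was -0.48 (95% interval -0.84 to -0.12), with an unadjusted limma p of 0.011 that did not pass after adjustment (0.313). Without OVX + E replicate 1 this difference was -0.60 with an adjusted p of 0.0474. The response to ovariectomy minus that to orchiectomy was 0.03 (95% interval -0.33 to 0.39, adjusted p = 1).

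**Figure D2:**
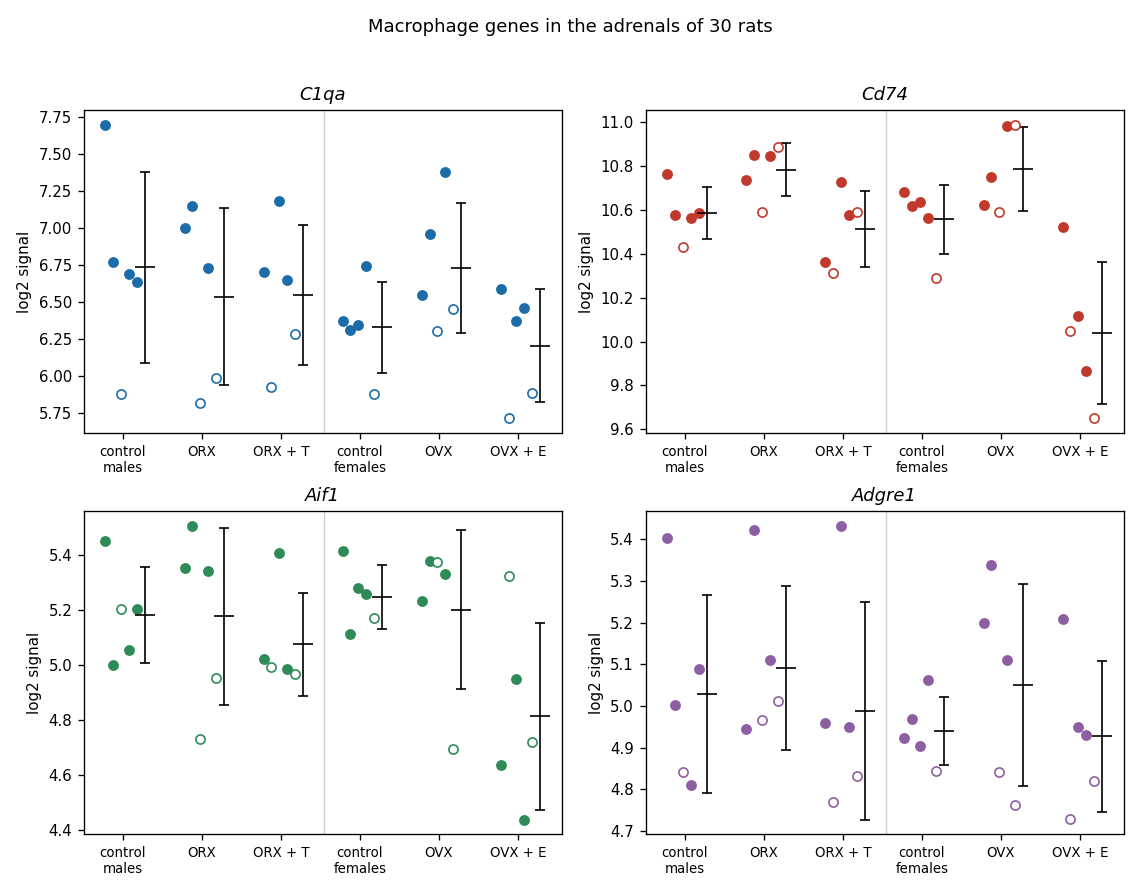
Log2 signal (y) of the 4 members in each rat of the 6 groups (x), with open circles for narrow arrays and black bars for the mean and SD of 5 rats. The 5 OVX + E values of Cd74, between 9.65 and 10.52, lie below all 5 OVX values, while the groups overlap for the other 3 genes.

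C1qa, the complement gene, varied more within groups than between them. In control males the log2 signals were 7.69, 6.77, 5.88, 6.69 and 6.64, in ORX 6.997, 7.15, 5.82, 6.73 and 5.99, and in ORX + T 6.70, 5.92, 7.18, 6.65 and 6.29. In control females they were 6.37, 6.31, 6.34, 6.74 and 5.87, in OVX 6.55, 6.96, 6.30, 7.38 and 6.45, and in OVX + E 6.59, 5.71, 6.37, 6.46 and 5.89. The lowest value of each group came from a narrow array, and all groups overlapped. The group SD ran from 0.31 in control females to 0.65 in control males. The mean was 6.73 in control males, 6.73 in OVX and 6.203 in OVX + E, and no 2 neighbours in the order of the 6 means differed by more than the larger of their SDs. OVX + E minus OVX was -0.52 (SE 0.29, 95% interval -1.13 to 0.08, limma adjusted p = 0.584, exact permutation p = 0.111). Control females minus control males was -0.40 (SE 0.29, adjusted p = 1).

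Aif1 showed its lowest values in the estradiol-treated females. OVX rats measured 5.23, 5.38, 5.38, 5.33 and 4.69, and OVX + E rats measured 4.64, 5.33, 4.95, 4.44 and 4.72. The lowest OVX rat (4.69) and the highest OVX + E rat (5.33) each lay inside the range of the other group, and both were measured on narrow arrays. The log2 difference was -0.39 (SE 0.16, 95% interval -0.71 to -0.07), which did not pass (limma adjusted p = 0.322, exact permutation p = 0.0952). Without the narrow arrays the difference was -0.64 and passed (adjusted p = 0.00558), as it did with array weights (-0.56, adjusted p = 0.0032). Against control females, which ran from 5.11 to 5.42, the difference was -0.43 (SE 0.16, adjusted p = 0.701, exact permutation p = 0.0397), and it too passed without the narrow arrays (-0.59, adjusted p = 0.0304) and with array weights (-0.50, adjusted p = 0.0383). The male groups had medians of 5.20 (control), 5.34 (ORX) and 4.99 (ORX + T) and overlapped. One OVX + E value, that of replicate 4, lay below the median of its array, and over all arrays the mean of Aif1 stood at percentile 55.8 of the genes.

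Adgre1 was nearly level over the 6 groups. Its means ran from 4.93 ± 0.18 in OVX + E to 5.09 ± 0.20 in ORX (SD, n = 5 each), and all values lay between 4.73 and 5.43. The groups overlapped in each of the 7 comparisons of 2 groups. OVX + E minus OVX was -0.12 (95% interval -0.40 to 0.15, adjusted p = 0.865) and OVX minus control females was 0.11 (95% interval -0.16 to 0.38, adjusted p = 1). Its signal exceeded the median of its array by 0.10 to 1.02 on the log2 scale, and its mean stood at percentile 54.0 of the genes.

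OVX + E had the lowest of the 6 means for all 4 genes, but for C1qa and Adgre1 this turned with the handling of the array spread. Control females had the lowest mean of both genes with array weights, with the array SD as a covariate and when narrow arrays were left out. OVX + E stayed lowest for Cd74 and Aif1 under these 3 and also after quantile normalization and median centring. In Cd74 the gap to the next group up, ORX + T, was 0.47, larger than the larger SD of the pair (0.32), while in Aif1 (0.26 against 0.34), C1qa and Adgre1 it was smaller. In Cd74 the top of the order was OVX and ORX (10.79 and 10.78), which did not differ beyond their spread, followed after a gap of 0.20, larger than either SD, by control males (10.58), control females (10.56) and ORX + T (10.51). The top group was control males for C1qa, control females for Aif1 and ORX for Adgre1, each within 1 SD of the next.

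Over the 9 comparisons, 1 of 36 differences of a member passed at an adjusted p under 0.05, and 6 had an unadjusted limma p under 0.05, of which 4 were of Cd74 and 2 of Aif1. Over all genes and the same comparisons 5.65% were under that threshold, and from 2.14% to 10.3% in a single comparison. Of 28 exact permutation tests of members 5 gave p under 0.05, against 5.36% over all genes. Several of these comparisons share groups, so the differences of a gene are not separate findings. The share of all genes that passed in either direction was 0.055% for ORX against control males, 0.941% for ORX + T against control males and 2.05% for ORX + T against ORX, and none of the 4 members passed there. It was 0.165% for OVX against control females, 0.234% for OVX + E against control females and 0.433% for control females against control males, again with 0 members. It was 0.00687% for the difference between the sexes and 1.57% for the difference between the hormones, with 0 members. The median of the 4 differences was -0.46 for OVX + E against OVX, where that of all genes was 0.02 and 44.6% of all genes lay below 0, and all 4 members did. In ORX + T against ORX the median of the members was -0.10 and that of all genes -0.01.

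**Figure D3:**
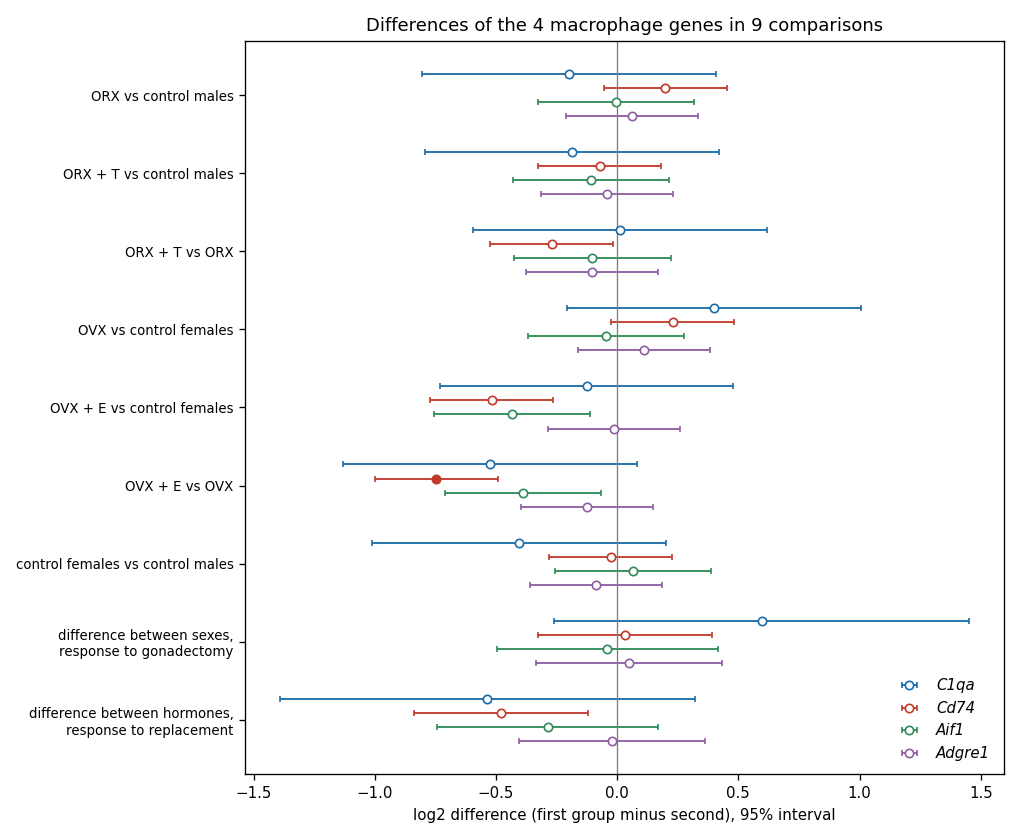
Log2 difference (x) of each member in the 9 comparisons (y), first group minus second, with 95% intervals from the limma fit over 30 arrays. The filled point, Cd74 in OVX + E against OVX at -0.75, is the difference that passed at an adjusted p under 0.05, and 35 others are open.

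The MHC class II pathway, in which the invariant chain works, lay lower in OVX + E than in OVX together with Cd74, though most of its genes did not pass. Of 10 measured genes of the list, 1 fell (1.37% of all genes) and 9 did not pass. An unadjusted p under 0.05 was found for 5 (10.3% of all genes) and an exact permutation p under 0.05 for 3 (7.15% of all genes). All 10 differences were below 0, against 44.6% of all genes, and their median was -0.35, beside 0.02 for all genes. RT1-Ba, the alpha chain of RT1-B, measured 7.39, 7.35, 7.21, 7.76 and 7.57 in OVX and 6.96, 6.95, 7.18, 6.83 and 6.88 in OVX + E. The groups did not overlap, which held with OVX + E lower for 1.55% of all genes. The fall of 0.49 on the log2 scale (SE 0.13) passed with a limma adjusted p of 0.0394. That call was not firm, since leaving out any 1 of 8 of the 10 arrays gave adjusted p from 0.0626 to 0.153, and 4 of the other fits gave 0.0993 to 0.181, the highest after quantile normalization. RT1-Da, the alpha chain of RT1-D, ran from 8.60 to 9.76 in OVX and from 8.01 to 8.96 in OVX + E, a difference of -0.76 (SE 0.21, adjusted p = 0.0626). It passed in 8 of 21 alternatives, among them array weights (0.02), quantile normalization (0.0267), where it was the class II gene that passed and RT1-Ba did not, and the array SD as a covariate (0.0084), with adjusted p from 0.0084 to 0.231 over all of them. The beta chain genes RT1-Bb (-0.67, adjusted p = 0.456) and RT1-Db1 (-0.44, adjusted p = 0.442) and RT1-DMb of the peptide exchanger (-0.52, adjusted p = 0.453) did not pass. Unlike RT1-Ba and RT1-Da, RT1-Db1 did not have its lowest group mean in OVX + E, which stood above both control groups. RT1 genes have close copies whose transcripts can bind the same probes, so single RT1 values are uncertain.

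In the male arm RT1-Ba and RT1-Bb stood below ORX in the testosterone-replaced rats without passing in the main fit. RT1-Ba was 7.54 ± 0.16 in ORX and 7.12 ± 0.14 in ORX + T (SD, n = 5 each), groups that did not overlap, with a log2 difference of -0.43 (SE 0.13, adjusted p = 0.0936). RT1-Bb was 7.03 ± 0.41 in ORX and 6.06 ± 0.28 in ORX + T, also without overlap, a difference of -0.97 (SE 0.31, adjusted p = 0.147). Over all genes 7.6% had an exact permutation p under 0.05 in this comparison, and the share without overlap was not counted. The list as a whole did not lie to one side there in the main fit: 6 of 10 differences were below 0 and their median was -0.02. With array weights RT1-Ba and RT1-Bb both fell, where 4.97% of all genes fell. In that fit 8 of 10 differences were below 0 and their median was -0.13. RT1-Ba in ORX against control males was 0.42 (SE 0.13, adjusted p = 0.412).

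**Figure D4:**
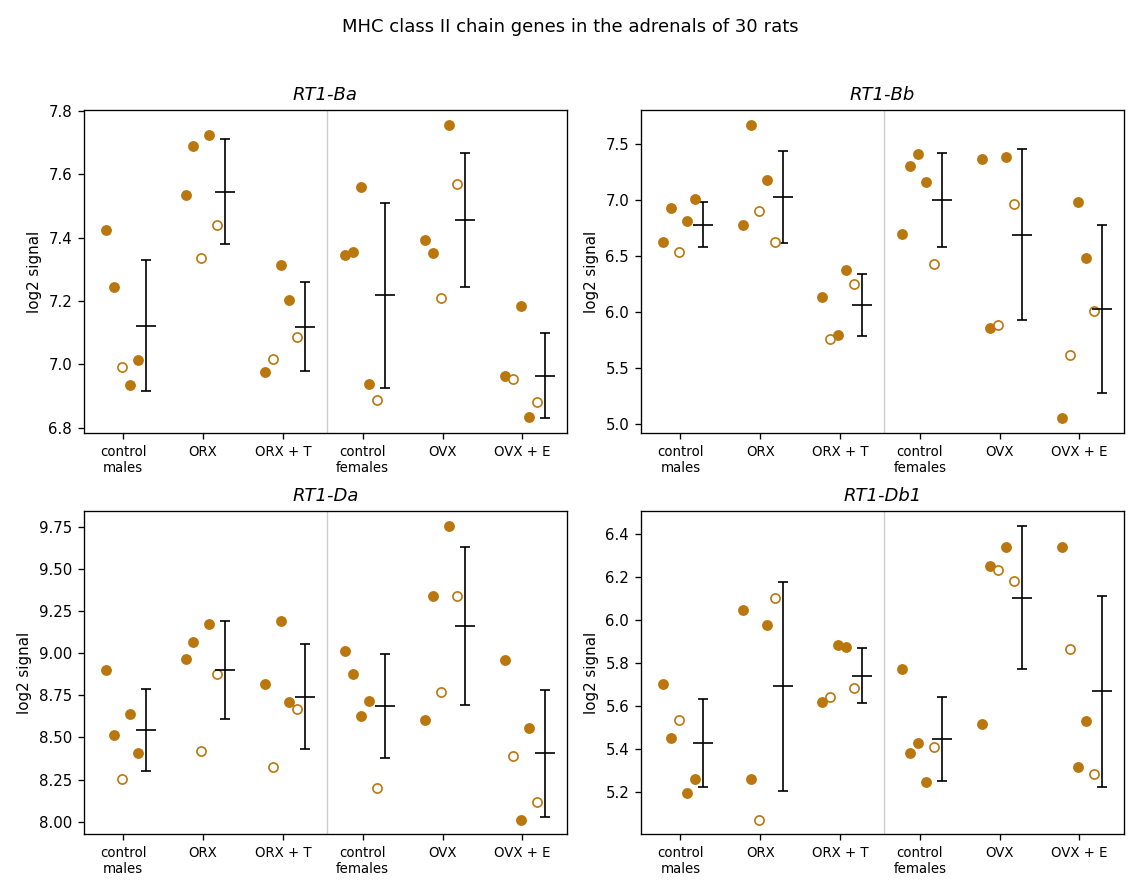
Log2 signal (y) of the alpha and beta chain genes of RT1-B and RT1-D in each rat of the 6 groups (x), with open circles for narrow arrays and black bars for the mean and SD of 5 rats. RT1-Ba does not overlap between OVX (7.21 and above) and OVX + E (7.18 and below), while RT1-Bb and RT1-Db1 spread widely within OVX and OVX + E.

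Other macrophage genes were looked at as a list of 40, of which 33 had a probe set with a single symbol. In OVX + E against OVX none of the 33 passed by limma. An unadjusted p under 0.05 was found for 8 (10.3% of all genes) and an exact permutation p under 0.05 for 8 (7.15% of all genes). Below 0 lay 26, against 44.6% of all genes, and the median was -0.22. C1qb measured 7.92, 7.94, 7.33, 8.02 and 7.74 in OVX and 7.29, 6.46, 7.13, 7.26 and 6.19 in OVX + E. No OVX + E rat reached the lowest OVX rat, and the difference of -0.93 (SE 0.25) missed the threshold with an adjusted p of 0.0555. C1qb passed in 9 of 21 alternatives, among them quantile normalization (0.000587), the array SD as a covariate (0.00195), array weights (0.00413) and the fit without the narrow arrays (0.0291). Leaving out 1 array passed for OVX replicate 3 (0.0328), OVX + E replicate 1 (0.0395) and OVX + E replicate 4 (0.044), and the highest adjusted p of any alternative was 0.173. C1qc also had no overlap (1.55% of all genes, with OVX + E lower), with a difference of -0.53 (SE 0.20, adjusted p = 0.245, exact permutation p = 0.00794). Cd68, a lysosomal protein of macrophages, differed by -0.56 (SE 0.18, adjusted p = 0.144). Csf1r differed by -0.39 (SE 0.28, adjusted p = 0.719) and Ptprc, the common leukocyte antigen CD45, by -0.33 (SE 0.23, adjusted p = 0.706). Csf1, which encodes the growth factor that macrophages need, differed by -0.30 (SE 0.21, adjusted p = 0.71), and none of the 10 measured genes of growth factors and chemokines passed, with 2 at an unadjusted and 0 at an exact permutation p under 0.05. Of 6 measured complement genes, C1qb and C1qc among them, none passed and 4 lay below 0, with a median of -0.19. An unadjusted p under 0.05 was found for 3 of the 6 (10.3% of all genes) and an exact permutation p under 0.05 for 3 (7.15% of all genes). How many of the 33 fell depended on how the array spread was handled, and so did the share of all genes that fell. It was 3 of 33 without the narrow arrays, where 4.48% of all genes fell, and 6 with array weights (4.09% of all genes). It was 6 when the array SD was a covariate (4.11%, with 14.6% passing in either direction) and 7 with quantile normalization (3.58%).

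Markers of endothelial, chromaffin and capsule or fibroblast cells lay lower in OVX + E as well, while those of fat cells did not. None of the 6 endothelial, 6 chromaffin and 9 capsule or fibroblast genes passed by limma. An unadjusted p under 0.05 was found for 1, 3 and 3 of them (10.3% of all genes). An exact permutation p under 0.05 was found for 0, 1 and 2 (7.15% of all genes). All 21 lay below 0, as the counts of 6 of 6, 6 of 6 and 9 of 9 show, against 44.6% of all genes. The medians were -0.45, -0.37 and -0.26. Some of these genes, too, fell under the alternatives: 3 endothelial (Cdh5, Plvap and Esam), 1 chromaffin (Npy) and 2 capsule genes (Lum and Col3a1) without the narrow arrays, and 1, 1 and 1 with array weights. The same counts were 2, 2 and 1 after quantile normalization and 1, 2 and 1 when the array SD was fitted. The summed linear signal of the endothelial genes ran from 947 to 1527 in OVX and from 768 to 1454 in OVX + E, that of the chromaffin genes from 2833 to 4215 and from 1848 to 3638, and that of the capsule genes from 1785 to 2225 and from 1546 to 1974. For the 4 members the same sum ran from 1690 to 2263 in OVX and from 917 to 1626 in OVX + E, a sum in which the Cd74 signal weighs most, and for the other 33 macrophage genes from 2492 to 4040 and from 1769 to 3043. Of the zona glomerulosa list, where 3 of 4 lay below 0, Cyp11b2, the aldosterone synthase, fell by 1.68 on the log2 scale (SE 0.39, adjusted p = 0.0167). The 5 zona fasciculata genes did not pass, with a median of -0.05. Of 7 fat cell genes 2 lay below 0 (median 0.04), and of 3 red blood cell genes 2 did (median -0.11), and none of either list passed. The part of these other cells in the macrophage values was not tested.

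No gene of the other immune lists passed in the main fit of the same comparison. All 3 B cell genes lay under the array medians in both groups, and the summed signal ran from 51.2 to 56.1 in OVX and from 50.2 to 54.1 in OVX + E. Of 10 T cell genes 6 lay under the array medians in both groups and none passed by limma. An unadjusted p under 0.05 was found for 2 (10.3% of all genes) and an exact permutation p under 0.05 for 2 (7.15% of all genes). One of these 2 was Cd4, which rat macrophages also carry, at -0.72 (SE 0.21, adjusted p = 0.0781), named here after its value was seen. Cd4 fell with array weights, with the replicate block and after quantile normalization, and Cd3g fell after quantile normalization. Klrd1, of the NK cell list, rose with array weights. The medians were -0.05 for B cells, -0.12 for T cells, 0.03 for NK cells, 0.05 for dendritic cells, 0.02 for mast cells and 0.11 for neutrophils. All 5 neutrophil genes lay above 0, while 44.6% of all genes lay below. In the main fit 1 of 6 NK and 1 of 7 mast cell genes had an unadjusted p under 0.05. An exact permutation p under 0.05 was found for 2 mast cell genes and 1 neutrophil gene. Of the mast cell genes 6 lay under the array medians in both groups, and of the neutrophil genes 3 in OVX + E.

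**Figure D5:**
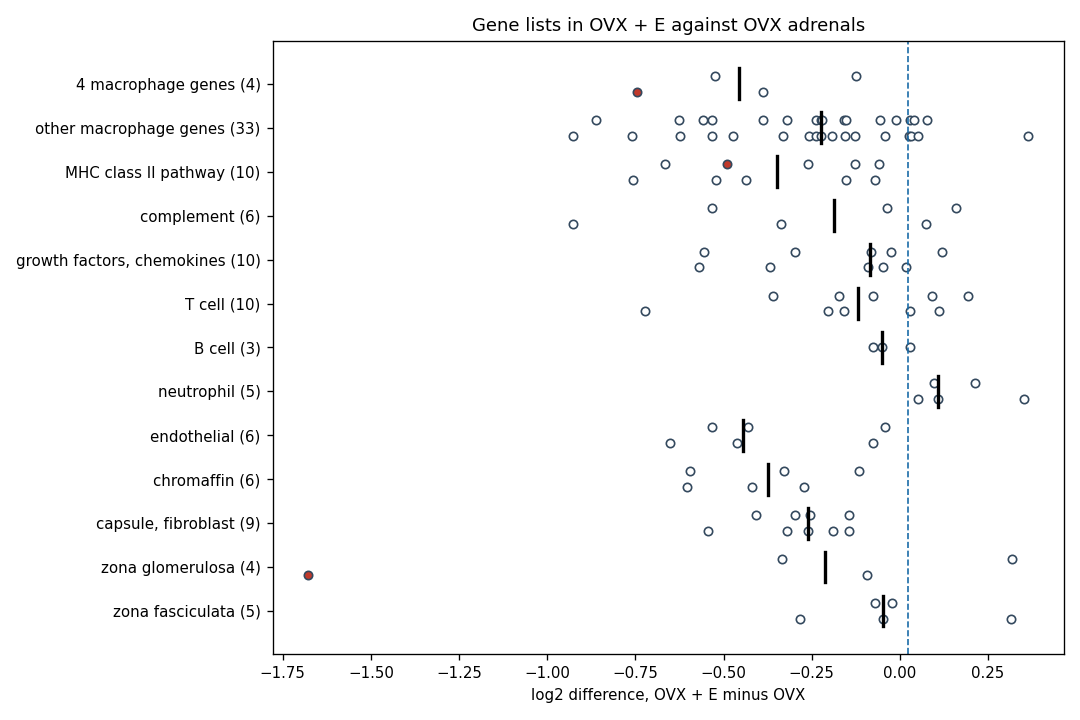
Log2 differences between OVX + E and OVX (x) of the measured genes of each list (y, number of genes in parentheses), with a black bar at the median of the list and a dashed line at the median of all genes (0.02). Filled points passed at an adjusted p under 0.05: Cd74, RT1-Ba and Cyp11b2.

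In the testosterone-replaced males, 2 of the 33 other macrophage genes rose against ORX by limma, and none of the 4 members did. In that comparison 1.37% of all genes passed with a higher level in ORX + T. With array weights 3 of the 33 rose and 1, C1qb, fell, where 9.11% of all genes passed in either direction and 4.97% fell. Cd14, the co-receptor for bacterial lipopolysaccharide, measured 6.72, 7.22, 6.65, 6.78 and 6.15 in ORX and 8.18, 7.67, 8.10, 8.25 and 8.03 in ORX + T, a log2 difference of 1.34 (SE 0.21, adjusted p = 0.000186). Lgals3, the lectin galectin-3, measured 7.20, 6.99, 5.52, 6.57 and 5.87 in ORX and 8.09, 7.42, 8.61, 8.03 and 7.75 in ORX + T, a difference of 1.55 (SE 0.29, adjusted p = 0.00169). In both genes every ORX + T rat lay above every ORX rat, and the share of all genes without overlap was not counted there. Cd14 also rose against control males, by 1.08 (SE 0.21, adjusted p = 0.00584). Both genes are made by cells other than macrophages too, and both stand in the study's own list of changed genes from these rats, so they are not independent evidence of a macrophage change. In the same comparison C1qa differed by 0.01 (95% interval -0.59 to 0.62), Aif1 by -0.10 (95% interval -0.42 to 0.22) and Adgre1 by -0.10 (95% interval -0.37 to 0.17).

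Among rats of a group, the 4 genes correlated to different degrees over all 30 rats and to a like degree over the 20 wide arrays. Pearson's r of the deviations from the group means over 30 rats was 0.75 for C1qa with Adgre1 (Spearman's rho 0.74, permutation p = 3e-05 and 5e-05, adjusted over 6 pairs 0.00018 and 3e-04). It was 0.54 for C1qa with Cd74 (rho 0.49, permutation p = 0.00132 and 0.0116, adjusted 0.00396 and 0.0348) and 0.45 for Cd74 with Adgre1 (rho 0.40, permutation p = 0.0182 and 0.0486, adjusted 0.0364 and 0.0825). For Aif1 it was 0.40 with Adgre1, 0.38 with C1qa and 0.14 with Cd74, and adjusted permutation p ran from 0.0687 to 0.583 for r and from 0.0825 to 0.474 for rho. Without the 2 rats farthest from the median of C1qa, r was 0.70 with Adgre1 and 0.49 with Cd74. For Cd74 with Adgre1, without the 2 rats farthest in Cd74, it was 0.37. Within the 20 wide arrays r was 0.63 for C1qa with Adgre1, 0.51 for C1qa with Cd74 and 0.51 for Cd74 with Adgre1, and for Aif1 it was 0.61 with Adgre1, 0.55 with C1qa and 0.46 with Cd74, so all 6 pairs were positive there. For these 20 arrays the deviations were taken from the mean of the wide arrays of each group. For the 10 narrow arrays they were taken from the mean of all arrays of the group, wide ones included. Taken that way, the first 3 were -0.11, 0.25 and -0.38 and those of Aif1 were -0.049, -0.058 and -0.19. Each narrow value thus carries an offset set by the wide arrays of its group. The r of the narrow arrays is therefore not the same measure as that of the wide arrays. It cannot show whether a relation held among the narrow arrays. With the array SD taken out of both genes r over the 30 rats was 0.60, 0.36 and 0.29 for the first 3 and 0.40, 0.43 and 0.09 for those of Aif1. The permutation tests do not set these pairs against other genes, many of which also follow the array spread. Ranks among all genes are given below.

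The genes closest in pattern to each member over the 30 arrays, by Pearson's r of the log2 values, are given as a description, since arrays share group and spread. For C1qa they were C1qc (0.91), Pld4 (0.91), Fcer1g (0.90), Ms4a4a (0.89) and Vcam1 (0.89), with Csf1r (0.87) and C1qb (0.85) at ranks 7 and 8 of 14556 genes. For Adgre1 they were Pla2g2d (0.79), Slc11a1 (0.77), C1qa (0.75), Cd68 (0.73) and Ogfr (0.73). Cd74 (0.45) stood at rank 3986 in the order of Adgre1 and Aif1 (0.41) at 4760. For Cd74 they were Cdv3 (0.81), Atf4 (0.80), Tpt1l2 (0.78), Gclc (0.78) and C1qb (0.77), so 1 of its 5 nearest genes was on a macrophage list. For Aif1 they were Vstm4 (0.75), Fbxo36 (0.67), Ston1 (0.66), Prex1 (0.65) and Ptpn6 (0.65). Aif1 stood at rank 836 in the order of Cd74 over all 30 arrays (r = 0.46) but at rank 3 over the 20 wide arrays (r = 0.82), and Cd74 stood first in the order of Aif1 there.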

How the data were processed

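RNA from the adrenals of 30 rats was measured, each on an array. Background correction, normalization and probe summary were done by the authors with RMA (affy), and annotation with oligo. The deposited values are log2 signals (36685 probe sets, 2.81 to 12.82). Versions are not given in the sources used here. The SD of the signal differed between arrays although RMA normally equalizes it, so which arrays were normalized together is unknown.

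Probe sets with 1 symbol were kept (14824, against 829 with several and 21032 with none), the brightest per gene. Groups were compared with limma 3.58.1 (R 4.3.3) in a single fit of 6 group means to 30 arrays, with empirical Bayes variances (24 residual plus 2.92 prior degrees of freedom) and Benjamini-Hochberg adjustment over 14557 genes. A gene passed, rose or fell at an adjusted p under 0.05, with the study's added fold limit of 2 as an alternative. Single values were compared by exact two-sided permutation of 5 against 5 rats (28 tests, unadjusted). Relations between members used 100000 permutations within groups. The fit was tested on simulated data.

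Replicate numbers were not used to pair rats across groups: of 75 same-numbered pairs, deviations correlated above 0.1 in 48 (range -0.76 to 0.87), and 10 of 30 arrays correlated best with their own number. The counts to be had by chance were not computed. Narrow spread did follow the number in part: replicate 5 was narrow in every group except control males, and the other narrow arrays were replicates 2 or 3. The labels call the rats biological replicates. No 2 arrays held identical values.

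The members and the gene lists were chosen with earlier results of these data known. From each list, the genes that passed with the lowest p (up to 4 per direction) were named, together with Csf1r, Cd68, C1qb, C1qc, Ptprc, Csf1 and RT1 class II genes. Cd163 has no probe set with a single symbol and was not analysed here. The arrays give no detection p and the number of rats limits the precision.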

Additional observations from a re-analysis of the deposited data

Results flagged for a closer look

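Dixon's gap test was applied to 14 genes in 6 groups of 5 rats, 84 groups in all, where chance flags about 5% of groups. It marked 5 values, 3 of them among the 24 groups of the members. ORX + T replicate 3 stood above its group in Aif1 (5.41), Adgre1 (5.43) and Cd68 (6.25). OVX replicate 5, a narrow array, stood below its group in Aif1 (4.69), and OVX replicate 1 stood below its group in RT1-Db1 (5.51).

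The response of Lgals3 to replacement differed between the arms, with the estradiol response minus the testosterone response at -2.08 (SE 0.41, limma adjusted p = 0.00469). In none of the 4 members did this difference pass, or that between the responses to ovariectomy and orchiectomy.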

How the results depend on the processing

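Each comparison was refitted on the arrays of the sex compared, with an intensity trend and robust variances, array weights, the replicate block, the 60% of genes with the highest mean, the mean over probe sets, every probe set, median centring, quantile normalization, leaving out the narrow arrays, adding the array SD as a term, adding the fold limit, and leaving out each array in turn. The fall of Cd74 in OVX + E against OVX passed in all of these except under the fold limit of 2, where 0 members passed. Counts of members that passed there rose from 1 to 2, with Aif1, under array weights and without the narrow arrays. In OVX + E against control females, where 0 members passed, 2 (Cd74 and Aif1) passed with array weights, 1 (Cd74) with the array SD, 1 (Cd74) after quantile normalization and 1 (Aif1) without the narrow arrays. In the same order of fits 0.824%, 2.1%, 1.13% and 0.776% of all genes passed, against 0.234% in the main fit. Leaving out 1 array in OVX + E against control females gave 0 to 1, and likewise 0 to 1 for the difference between the hormones. With the replicate block the Cd74 fall was -0.75 with an adjusted p of 0.000922, and no other call of a member changed. The block did bring C1qb and RT1-Da in OVX + E against OVX to adjusted p of 0.0231 and 0.0434.

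Of the 36 differences of members, 16 changed sign under some alternative, the largest of these being 0.20 in size. Of those given above, C1qa in ORX + T against ORX was -0.15 with array weights, -0.015 after quantile normalization, -0.11 when narrow arrays were left out and -0.066 with the array SD, and ran from -0.17 to 0.17 without 1 array. Cd74 in the response to ovariectomy minus that to orchiectomy was -0.071, -0.00062 and -0.027 under the first 3 of these and ran from -0.036 to 0.080 without 1 array. Cd74 in ORX + T against control males was 0.022 after quantile normalization. OVX + E against control females with array weights, with the array SD and when narrow arrays were left out was 0.027, 0.084 and 0.030 for C1qa and 0.052, 0.053 and 0.064 for Adgre1, and for Adgre1 it ran from -0.084 to 0.036 without 1 array. The cause was not tested. Over all genes the count that passed in OVX + E against OVX was 246 (1.69%) and became 1119 (7.69%) without the narrow arrays, 1065 (7.32%) with array weights, 2126 (14.6%) with the array SD and 868 (5.96%) after quantile normalization. The rises of Cd14 and Lgals3 passed in every alternative run for them. These alternatives for single other genes and for lists were added after the values were seen. Precision is limited by 5 rats a group, and single arrays decided several calls near the threshold.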
